A study of Mus musculus with 2 samples.

Results

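Secretory luminal cells of the mouse mammary gland that carried RNA of major histocompatibility complex class II (MHC-II) were taken from single-cell libraries of control (Ctrl) and clodronate liposome (CL) treated mice. A cell was kept in the data with at least 500 genes and at most 15% mitochondrial UMIs (unique molecular identifiers, each standing for 1 counted transcript). It was called secretory luminal with at least 10 UMIs of the luminal keratins Krt8 and Krt18, more than its UMIs of the basal keratins Krt5, Krt14 and Krt17, no UMI of the pan-leukocyte gene Ptprc, and a sum of Ltf, Wfdc18, Csn3, Aldh1a3 and Plet1 over 2 times the sum of the hormone-responsive genes Prlr, Areg, Cited1 and Ptn. Of those, cells with at least 5 UMIs of Cd74, H2-Aa, H2-Ab1 and H2-Eb1 together were called MHC-II-positive. In all, 812 of the 15632 cells kept met the rule, 17 of 6297 in Ctrl and 795 of 9335 in CL. The counts of these 19 genes chose the cells, so their levels are given as a description.

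Each group was 1 library, made from mammary glands of wild-type female mice labelled 9 to 10 weeks old (8 to 10 in the protocol). Clodronate liposomes, which kill the phagocytes that take them up, were injected intraperitoneally and repeatedly into the CL mice before harvest, and what the control mice received was not given in the sources used here for this experiment. Sorted CD45+ cells and CD31-TER119- cells went into droplets. The number of mice behind a library, and the proportions in which sorted fractions were mixed, were likewise not given. With 1 library per group no test was possible, and every interval below is an exact 95% interval that covers counting error only, not the spread between mice. Treatment, mouse, sort and library cannot be told apart from each other.

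The libraries held 118743318 UMIs (Ctrl) and 155765480 UMIs (CL). In cells with a Ptprc UMI the summed level of 8 macrophage genes was 2918 CPM (UMIs of a gene or list scaled to an equal total of all UMIs) in the library labelled Ctrl and 3786 CPM in the library labelled CL, and 20.8% and 26.1% of those cells had a UMI of the list. In those cells the macrophage markers therefore did not stand lower in the library labelled CL. Basal cells were a smaller part of the library labelled CL, 418 of 9335 cells kept, against 396 of 6297 in that labelled Ctrl. Directions below are between the libraries as labelled. Of the cell barcodes, 22 were candidates in both libraries. None of the members was a member in both, and 2 CL members carried a barcode that was also a candidate in Ctrl.

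MHC-II molecules present peptides from outside the cell to CD4+ T cells. Their alpha and beta chains (H2-Aa, H2-Ab1, H2-Eb1) travel with the invariant chain Cd74 until the peptide exchanger H2-DM, made of H2-DMa and H2-DMb1, loads a peptide. Dendritic cells, macrophages and B cells make them constitutively. Other cells, epithelium included, make them when interferon gamma switches on Ciita, a coactivator without a DNA-binding domain of its own that sits on the X and Y boxes of MHC-II promoters. Interferon gamma also induces MHC class I, the immunoproteasome and the guanylate-binding proteins (Gbp). Secretory luminal cells hold the luminal progenitors of the gland, which are known for Kit, Elf5 and Aldh1a3 and give rise to milk-producing alveolar cells.

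The promoters below are shown because genes of MHC-II and of the interferon response are known for the elements in them. Each is the 150 bases that end just before the RefSeq start site (GRCm38.p6), written 5′ to 3′ on the strand of the gene. They are 2 MHC-II chains of the rule, the MHC class I light chain B2m, the interferon-inducible GTPase Igtp and the chemokine Cxcl9, whose RefSeq starts lie within 1 base of those in GENCODE. Capitals mark the Y box core GATTGG, an X box pattern (AAC, any 3 bases, then TGATG), an interferon-stimulated response element pattern (GAAA, any 2 bases, then GAAA) and a gamma-activated site pattern TTCNNNGAA, searched on both strands. No capitals of different patterns overlap.
H2-Aa (chr17:34287824-34287973, - strand): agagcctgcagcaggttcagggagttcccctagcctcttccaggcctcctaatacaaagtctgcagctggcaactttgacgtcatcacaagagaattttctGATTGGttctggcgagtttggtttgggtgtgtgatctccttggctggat
H2-Eb1 (chr17:34305717-34305866, + strand): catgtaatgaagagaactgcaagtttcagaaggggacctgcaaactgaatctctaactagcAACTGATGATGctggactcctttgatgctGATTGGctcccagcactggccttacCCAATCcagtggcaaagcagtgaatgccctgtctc
B2m (chr2:122147537-122147686, + strand): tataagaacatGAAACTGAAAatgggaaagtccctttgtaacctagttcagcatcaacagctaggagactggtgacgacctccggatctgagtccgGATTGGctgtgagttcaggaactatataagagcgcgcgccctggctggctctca
Igtp (chr11:58199406-58199555, + strand): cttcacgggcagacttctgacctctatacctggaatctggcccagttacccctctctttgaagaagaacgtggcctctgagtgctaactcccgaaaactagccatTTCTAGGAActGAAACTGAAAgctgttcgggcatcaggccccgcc
Cxcl9 (chr5:92328080-92328229, - strand): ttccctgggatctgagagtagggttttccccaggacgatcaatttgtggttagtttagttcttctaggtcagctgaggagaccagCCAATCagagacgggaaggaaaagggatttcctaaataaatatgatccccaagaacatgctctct
A Y box core began 49 bases before the start of H2-Aa, 60 and 35 bases before that of H2-Eb1, 54 bases before that of B2m and 65 bases before that of Cxcl9. H2-Eb1 also held the X box pattern from 89 bases before its start, and H2-DMb1 held X and Y patterns from 92 and 62 bases before its own. The interferon-stimulated pattern stood 139 bases before the start of B2m, 34 bases before that of Igtp and 59 bases before that of Gbp2. Of 32851 RefSeq windows of the same 150 bases, 10.9% held the Y box core, 0.338% the X box pattern, 1.59% the interferon-stimulated pattern and 4.09% the gamma-activated pattern. The gamma-activated pattern stood 45 bases before the start of Igtp. A match of letters is a description and shows no binding.

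MHC-II-positive cells were a rare kind of secretory luminal cell in Ctrl and about 1 in 5 in CL. They made up 17 of 2763 secretory luminal cells in Ctrl (0.615%, 95% interval 0.359 to 0.983) and 795 of 4070 in CL (19.5%, 18.3 to 20.8). The ratio of the shares was 31.8-fold, or 4.99 on the log2 scale (4.30 to 5.78). It was 4.09 (3.62 to 4.60) at a limit of 3 MHC-II UMIs and 7.03 (5.17 to 10.08) at a limit of 20. As shares of all cells kept they were 0.270% and 8.52%. CL gave 97.9% of all members. In empty droplets, taken as free RNA, Cd74 was at 241.5 CPM in CL and 111.2 CPM in Ctrl. The part of free RNA in these shares was not tested.

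**Figure D1:**
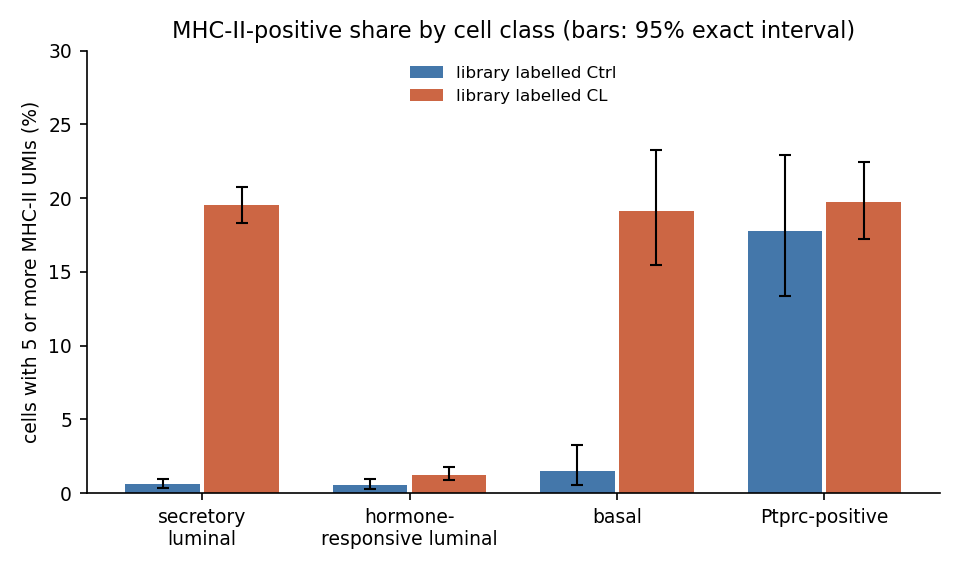
Share of cells with 5 or more MHC-II UMIs (y axis, percent) in secretory luminal, hormone-responsive luminal, basal and Ptprc-positive cells (x axis) of the libraries labelled Ctrl (blue) and CL (orange), with exact 95% intervals for counting error. Secretory luminal cells (0.615% and 19.5%) and basal cells (1.52% and 19.1%) stood far apart between the libraries, while hormone-responsive cells stayed under 2% in both.

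The same count was taken in the other cells of the gland. Among hormone-responsive luminal cells, the estrogen-sensing luminal lineage, 12 of 2110 (0.569%) reached 5 MHC-II UMIs in Ctrl and 33 of 2634 (1.25%) in CL, at a higher median depth (20193 and 17151 UMIs) than that of the members (15381 and 12175). Basal cells, the myoepithelial layer, reached it in 6 of 396 (1.52%, 0.558 to 3.27) and 80 of 418 (19.1%, 15.5 to 23.2). Among cells with a Ptprc UMI, 47 of 264 (17.8%) and 183 of 928 (19.7%) did so. In CL the intervals of secretory luminal and basal cells overlapped, and that of hormone-responsive cells lay below both. Basal cells were shallower, with a median of 6164 UMIs in CL.

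The contrast was also seen at equal depth. When every cell was thinned to 5435 UMIs (238 Ctrl and 407 CL secretory luminal cells were shallower and left out), 6 of 2525 Ctrl cells (0.238%) and 567 of 3663 CL cells (15.5%) kept 5 or more MHC-II UMIs. Hormone-responsive cells at the same depth gave 0.198% and 0.242%. At a limit of 1 UMI the thinned shares were 10.6% and 39.3% against 9.31% and 17.9% in hormone-responsive cells.

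Members differed widely in how much MHC-II they carried. The 17 Ctrl members ranged from 5 to 133 UMIs of the 4 genes with a median of 9, and the 795 CL members from 5 to 214 with a median of 19 (quartiles 10 and 39). In CL, 409 members held 5 to 19 UMIs, 248 held 20 to 49 and 138 held 50 or more. In Ctrl, 15 members held 5 to 18, and the other two stood apart at 62 and 133. Just outside the limit, 159 CL cells and 21 Ctrl cells had 3 or 4 UMIs, and just inside it 101 and 3 had 5 or 6.

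Cd74 led the 4 genes, and most CL members showed all of them. In CL members Cd74 was at 897 CPM (880 to 914), H2-Ab1 at 394, H2-Aa at 291 and H2-Eb1 at 273. Cd74 was found in 770 of the 795 cells, H2-Ab1 in 733, H2-Aa in 669 and H2-Eb1 in 644, and 526 cells (66.2%) had a UMI of each. In Ctrl members Cd74 was at 647 CPM, H2-Ab1 at 156 and the other two at 140 each, with all 4 genes in 8 of the 17 cells. Reads of H2 genes can be split among near-identical copies by the counting, so levels of single H2 genes are uncertain.

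The proportions of these genes were set beside those of free RNA, taken from empty droplets. Free RNA of all 4 stood higher in CL than in Ctrl. Cd74 was there at 241.5 and 111.2 CPM, H2-Ab1 at 203.7 and 99.9, H2-Eb1 at 169.5 and 95.8, and H2-Aa at 147.4 and 62.5. Cd74 gave 48.3% of the 4 genes' UMIs in CL members (47.7 to 48.99), against 31.7% in empty droplets of CL (30.7 to 32.7) and 32.2% in the other secretory luminal cells (30.2 to 34.4). In Ptprc-positive cells of CL the share was 41.3%, and in basal cells 45.7%. In Ctrl it was 59.8% in members (54.3 to 65.1), 30.1% in empty droplets and 31.9% in other secretory luminal cells. These genes chose the cells, so the shares are a description. The shares of the other genes differed in part, since in CL H2-Ab1 gave 29.6% in those cells and 26.7% in empty droplets, and H2-Eb1 19.5% and 22.2%.

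The label of luminal progenitors was checked against progenitor genes. Aldh1a3, a retinal dehydrogenase of luminal progenitors, was at 1970 CPM in CL members and 2079 CPM in the other CL secretory cells, and Csn3, which encodes kappa-casein, at 2391 and 2423 CPM. Both belong to the rule. Outside the rule, 12 progenitor genes together were at 914 CPM against 1042 CPM, a log2 ratio of -0.19 (-0.22 to -0.16). Kit, the stem cell factor receptor, was at 111 against 152 CPM, the transcription factor Elf5 at 67.7 against 77.8 CPM, and Cd14, the lipopolysaccharide co-receptor, at 323 against 365 CPM. The progenitor genes were thus present in the members, at levels somewhat below those of the other cells. In Ctrl the list was at 1066 CPM in members and 1158 CPM in other cells.

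Markers of immune cells were close to the level of other secretory luminal cells in CL. Of 9 genes shared by immune cells (Cd52, Laptm5, Coro1a, Rac2, Cd53, Lcp1, Tyrobp, Fcer1g, Cd37), all were found, at 20.2 CPM in CL members and 19.1 CPM in other secretory luminal cells, a log2 ratio of 0.08 (-0.13 to 0.29), while empty droplets held 375 CPM. A UMI of the list was found in 21.3% of members and 17.7% of others, with at most 9 in a member. In hormone-responsive cells of CL 52.4% had one, at 45.9 CPM. Of 8 dendritic cell genes, Flt3, Xcr1, Clec9a and Cd209a were at 0 UMIs in all 795 members. The other 4 gave 50 UMIs in 42 members (5.28%, against 4.73% of other cells). Of 8 macrophage genes, Adgre1 and Fcgr1 were at 0 in all members. The other 6 gave 85 UMIs in 65 members (8.18%, against 7.05% of other cells). Flt3, Clec9a and Fcgr1 were also at 0 in the other CL secretory luminal cells. The log2 ratios of members over other cells were 0.19 (-0.05 to 0.43) for T and NK cell genes, -0.05 (-0.42 to 0.30) for macrophage genes and -0.45 for dendritic cell genes. Fibroblast genes were at -0.24 and basal genes at -0.47. In cells with no immune marker UMI the fibroblast ratio turned to 0.63 (0.51 to 0.75), and after thinning the dendritic cell ratio was 0.28 (-0.46 to 0.98). B cell genes gave 50 UMIs in 15 CL members (log2 ratio 2.49), of which 36 lay in 1 cell, and endothelial genes 109 UMIs (1.47), with 36 in 1 cell. In Ctrl, 10 of 17 members had an immune marker UMI (58.8%) against 11.7% of other cells, at 52.0 and 11.7 CPM, with at most 3 UMIs in a cell. The part of immune RNA in the Ctrl members was not tested.

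Each member was also scored for doublets, that is, droplets with more than 1 cell. Scrublet marked 38 CL members (4.78%) and 0 Ctrl members, against 3.02% and 3.28% of the other secretory luminal cells. At least 10 basal keratin UMIs were found in 43 CL members and 1 Ctrl member. Median genes per cell were 3194 in CL members and 2659 in other CL cells, and median mitochondrial shares 2.51% and 2.52%.

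Within CL, genes of antigen presentation and interferon response stood higher in MHC-II-positive than in other secretory luminal cells. The cells were split by their own MHC-II counts, so this comparison describes what goes with the rule in the same cells and supports nothing beyond it. Of 5306 genes outside the rule at a mean of at least 20 CPM, here called comparable, 33 (0.622%) were at least 2-fold higher with an interval that excluded equality, and 1 (0.0188%), Apoc1, was at least 2-fold lower. The median log2 ratio over all 5306 genes was 0.00. A gene that reached a mean of 20 CPM only through the side where it is high had to differ, so where genes of a list passed, their count is over genes at 20 CPM or more on both sides. This held for 24 of the 33, among 5128 genes at that level on both sides, and not for Apoc1. Of the 33 genes, 23 belonged to 6 lists of antigen presentation and interferon response, 4 to other lists (Ly6a, Hp, Pigr and Slpi) and 6 to none (Ifitm3, AW112010, Sdf2l1, Ccl5, H2-T22 and Zbp1). Those 6 lists hold 5, 16, 7, 10, 6 and 6 of the 5306 comparable genes. RefSeq held promoter windows for 26 of the 33 genes, of which 11 had the Y box core, 7 the interferon-stimulated pattern, 4 the gamma-activated pattern and 1 the X box pattern. A gene counted here with any of its windows. Over all 32851 windows, counted singly, the shares were 10.9%, 1.59%, 4.09% and 0.338% in that order.

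**Figure D2:**
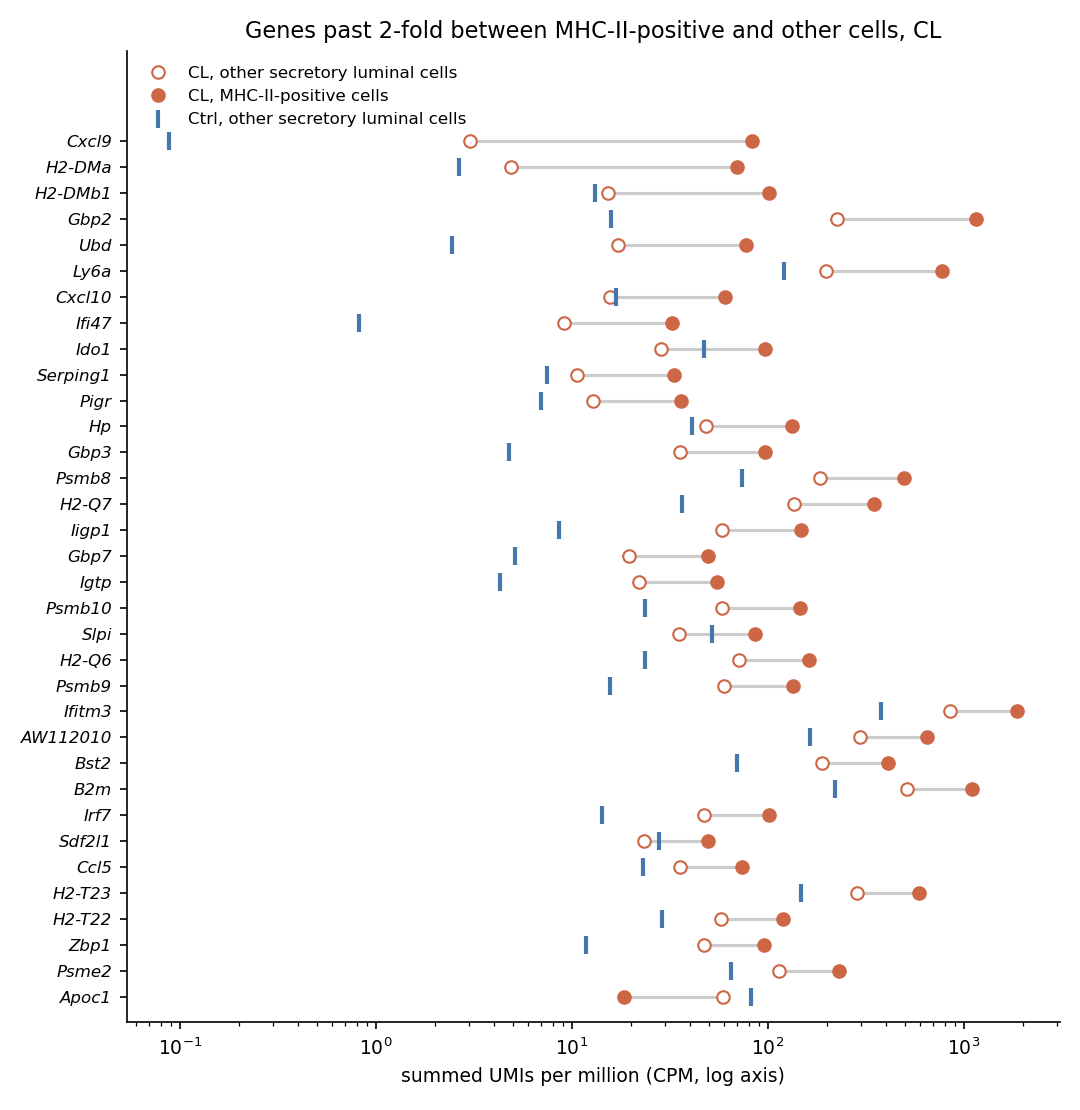
Levels of the 33 higher genes and Apoc1 (y axis) in CPM on a log axis, for CL MHC-II-positive cells (filled orange), other CL secretory luminal cells (open orange) and other Ctrl secretory luminal cells (blue bars). Cxcl9 spanned the widest gap, from 3.03 to 83.5 CPM, and Gbp2 went from 15.8 CPM in Ctrl to 226 CPM in other CL cells and 1150 CPM in CL members.

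The partners that load MHC-II were among the genes with the highest ratios. H2-DMa was at 69.4 CPM in members and 4.91 CPM in other CL cells, a log2 ratio of 3.82 (3.59 to 4.06). H2-DMb1 was at 102 and 15.3 CPM, or 2.74 (2.60 to 2.89). Both stood under 20 CPM in the other cells. Ctsl, Lgmn and Ifi30, which encode lysosomal enzymes that act on invariant chain or antigen, had log2 ratios of -0.30, -0.09 and -0.30. Summed, the list was equal (843 and 835 CPM, log2 ratio 0.01) because Ctsl held most of its UMIs, while the median over its genes was 1.37. Ciita was counted at only 51 UMIs in 44 of the CL members and 35 UMIs in the others, 4.14 and 0.939 CPM (log2 ratio 2.14, 1.49 to 2.80), and at 0 UMIs in the 17 Ctrl members. Ctss, the cathepsin that cuts invariant chain in professional antigen-presenting cells, gave 35 UMIs, or 2.84 CPM against 1.56 CPM. The factors that hold the X and Y boxes (Rfx5, Rfxap, Rfxank, Nfya, Nfyb, Nfyc) and Creb1 were together at 160 and 162 CPM, with 0 of 4 past 2-fold.

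Guanylate-binding and other interferon-inducible GTPases, which attack vacuoles of intracellular pathogens, were higher as a group. Of 5 genes at 20 CPM or more on both sides 4 passed, and the 16 listed genes together were at 1630 CPM in members and 411 CPM in other CL cells, a log2 ratio of 1.99 (1.96 to 2.02) with a median of 2.19. The sum was led by Gbp2, which gave 14175 of 20094 UMIs in members and 8410 of 15337 in other CL cells. Gbp2, on chromosome 3 from 142620602 to 142638008, was at 1150 against 226 CPM (2.35, 2.31 to 2.39) and was counted in 660 of 795 members, with a median of 5 and a highest count of 280. Gbp3 was at 97.3 and 35.7 CPM, Iigp1 at 148.5 and 58.6, Igtp at 55.4 and 22.1, Gbp7 at 49.6 and 19.7, and Ifi47 at 32.5 and 9.17. Irgm1 was the comparable gene that did not pass, at 42.8 and 28.8 CPM (0.57). Members of the Gbp family share long stretches, so the split of UMIs among them is uncertain.

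MHC class I and its peptide supply stood about 2-fold higher. Of 16 such genes 8 passed 2-fold, and the summed level was 9822 against 5282 CPM, a log2 ratio of 0.89 (0.88 to 0.91) with a median of 1.00. B2m was at 1103 and 514 CPM (1.10), H2-T23 at 593 and 284 (1.06) and H2-Q7 at 348 and 137 (1.35). The immunoproteasome subunits Psmb8, Psmb9 and Psmb10 had log2 ratios of 1.41, 1.17 and 1.32, and the proteasome activator Psme2 1.01. The classical heavy chains H2-K1 (3321 and 1918 CPM, 0.79) and H2-D1 (1917 and 1197 CPM, 0.68) and the peptide transporter Tap1 (98.9 and 60.5 CPM, 0.71) were under 2-fold. Nlrc5, the class I counterpart of Ciita, was at 12.5 and 8.53 CPM.

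Chemokines and other products of interferon gamma had high ratios that rested on few cells. Cxcl9, which draws T cells through Cxcr3, was at 83.5 and 3.03 CPM, a log2 ratio of 4.78 (4.50 to 5.08), yet it was counted in only 67 of 795 members, and 28 cells held 90% of its UMIs. Cxcl10 was counted in 90 members (60.9 and 15.8 CPM, 1.95), 30 of which held 90%. Ido1, which degrades tryptophan, was counted in 100 members (96.7 and 28.7 CPM, 1.76), with 90% in 26. By contrast Ubd, a ubiquitin-like protein, was spread over 265 members (77.7 and 17.2 CPM, 2.18) and Serping1, the C1 inhibitor, over 234 (33.1 and 10.6 CPM, 1.64). Of these genes, Ido1 alone was at 20 CPM or more on both sides. Its level in the members was below that of hormone-responsive cells (269.3 CPM) and of empty droplets (193.4 CPM) of CL. Nos2 gave 115 UMIs in 57 members (9.33 against 1.31 CPM, 2.83).

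Genes that carry the interferon gamma signal differed less. Summed over 11 genes they were at 629 and 592 CPM, a log2 ratio of 0.09 (0.05 to 0.12), and 0 of 10 comparable genes passed. The transcription factor Irf1 was at 56.7 and 62.6 CPM (-0.14) and the receptor chain Ifngr1 at 48.9 and 44.0 CPM. Ifng itself gave 4 UMIs over all CL members and 0 over the Ctrl members. It was found in Ptprc-positive cells at 100.3 CPM in CL (564 UMIs over 928 cells) and 135.0 CPM in Ctrl (203 UMIs over 264 cells). Empty droplets held Ifng at 5.59 CPM in CL (4.28 to 7.16) and 1.09 CPM in Ctrl (0.56 to 1.90). Type I interferon genes were together at 804 and 415 CPM (0.95), with 2 of 6 genes past 2-fold, Bst2 (412 and 190 CPM) and Irf7 (102 and 47.6 CPM).

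Signals that T cells read beside the peptide were scarce. Cd80 was at 0 UMIs in the members of both libraries, Cd86 at 3 UMIs in CL and 0 in Ctrl, and Cd40 at 18 and 0. The checkpoint ligand Cd274 (PD-L1) was counted in 104 CL members, at 15.4 against 3.78 CPM (2.03, 1.71 to 2.35), below the level at which calls were made. Lgals9 was at 58.0 and 31.6 CPM (0.88). The list was at 77.5 and 39.5 CPM together (0.97), and 0 of 1 comparable gene passed.

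**Figure D3:**
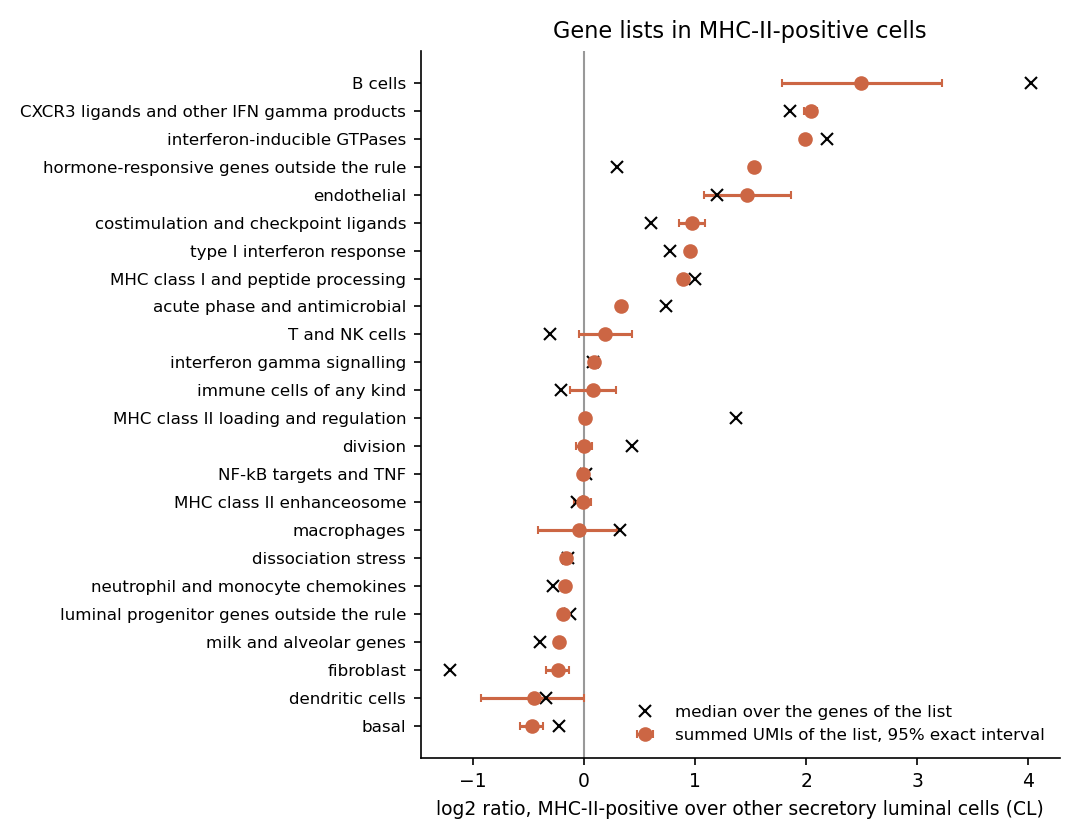
Log2 ratio of MHC-II-positive over other secretory luminal cells of CL (x axis) for each gene list (y axis), as the summed UMIs with the exact 95% interval (orange) and the median over genes (cross). Interferon-inducible GTPases lie at 1.99 and MHC class I at 0.89, immune markers at 0.08 and progenitor genes at -0.19; the B cell and endothelial lists hold 50 and 109 UMIs.

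Other programmes of the secretory lineage were close to or below the level of the other cells. Of the 9 comparable progenitor genes 0 passed 2-fold in either direction, with a median of -0.13. Milk and alveolar genes were at 2329 and 2739 CPM (-0.23), with 0 of 6 past 2-fold. Cck was at 90.4 and 153.5 CPM (-0.76) and the iron carrier Trf at 463 and 680 CPM (-0.55), while Lalba, a subunit of lactose synthase, was at 8.84 and 23.6 CPM (-1.42) under the limit for calls. Apoc1, an apolipoprotein, was at 18.5 and 59.2 CPM (-1.68, -1.88 to -1.48). The next lowest ratios, none past 2-fold, were those of Apoe (-0.79), Cytip (-0.74), Scd1 and Tagln (-0.73), Hcar2 and Lrg1 (-0.69), Pde4d and Dmkn (-0.67).

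Defence genes differed in part. Among acute phase and antimicrobial genes, 2 of 4 at 20 CPM or more on both sides were higher, Hp and Slpi. Hp was at 133 and 48.5 CPM (1.46) and Slpi at 85.8 and 35.1 CPM (1.29), while Pigr, the receptor that carries IgA into milk, was at 36.3 and 12.9 CPM (1.5). Hp was counted in 127 members, with 90% of UMIs in 32. Its level in the members was below that of hormone-responsive cells (332.5 CPM) and of empty droplets (260.9 CPM) of CL. Lcn2 was found in every member at 9918 CPM, against 7952 CPM in other cells (0.32). Neutrophil and monocyte chemokines were at 2637 and 2971 CPM (-0.17), NF-kB targets at 2061 and 2079 CPM (-0.01) and dissociation stress genes at 9389 and 10480 CPM (-0.16), each with 0 genes past 2-fold. Division genes were equal (181 and 180.5 CPM), and Mki67 gave 34 UMIs over all members.

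Ly6a, which encodes Sca1, was the one called gene of the hormone-responsive list. It was at 774 CPM in CL members and 198 CPM in other CL secretory cells (1.97, 1.93 to 2.01). Both were below the 1820 CPM of hormone-responsive cells and the 1368 CPM of empty droplets of CL. The part of free RNA in the Ly6a level was not tested. Esr1 was at 13.6 and 14.5 CPM and Pgr at 13.8 and 10.7 CPM, with neither past 2-fold. The median of the list was 0.30 where the sum, which Ly6a led, was 1.53. Ly6 genes have near-identical copies, so this level is uncertain in its split.

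Shares of cells with a UMI at equal depth followed the levels. After thinning to 5435 UMIs (25 of 795 members and 382 of 3275 other cells of CL left out), Gbp2 was counted in 69.9% of members and 36.1% of others (83.0% and 46.8% unthinned), against 25.2% of hormone-responsive cells. H2-DMb1 was counted in 39.4% and 7.64% (63.7% and 14.5% unthinned), against 18.4%, and H2-DMa in 36.2% and 2.18% (57.2% and 4.98% unthinned), against 8.50%. For both H2-DM chains the other secretory cells were thus below the hormone-responsive cells, and the members above. Ubd was counted in 21.6% and 5.25%, and Cxcl9 in 5.97% and 0.588%. Kit was counted in 42.6% and 48.3% (63.9% and 62.3% unthinned) and Cck in 26.0% and 34.7%.

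**Figure D4:**
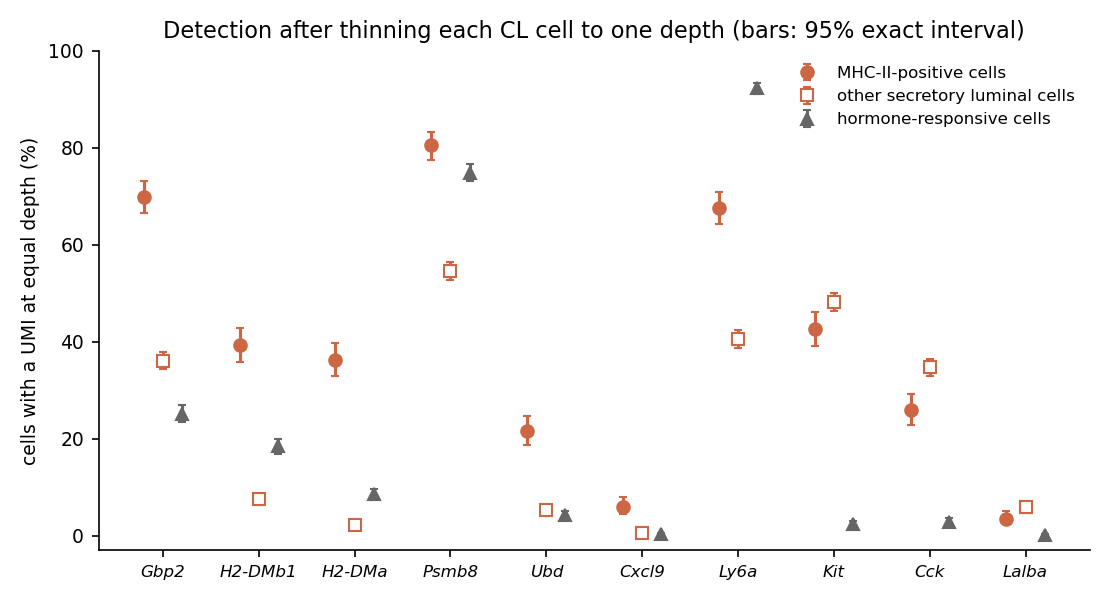
Share of CL cells with a UMI after thinning to 5435 UMIs (y axis, percent) for 10 genes (x axis) in MHC-II-positive cells (filled circles), other secretory luminal cells (open squares) and hormone-responsive cells (triangles), with exact 95% intervals. Members lie above both other classes for Gbp2, H2-DMb1 and H2-DMa, and below other secretory cells for Kit and Cck.

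The levels of these genes went with the MHC-II count of the secretory luminal cells of CL. From 0 to 1 to 4 MHC-II UMIs the GTPase list went from 400 to 425 CPM, then it stood at 1050 CPM in cells with 5 to 19, 1789 CPM with 20 to 49 and 2568 CPM with 50 or more. Gbp2, which gave most UMIs of that list, was at 218, 234, 674, 1246 and 1970 CPM, and Psmb8 at 178, 195, 345, 542 and 728 CPM. MHC class I went from 5105 to 11740 CPM over the same bins, and H2-DMb1 from 12.7 to 190 CPM. Ciita was at 1.16, 0.686, 2.86, 3.8 and 7.17 CPM, on 12 to 23 UMIs a bin. Kit went the other way, from 156 to 88.6 CPM, and Irf1 lay between 60.8 and 63.3 CPM up to 49 MHC-II UMIs and at 42.3 CPM beyond. Immune markers stayed between 17.2 and 22.5 CPM in all bins, and stress genes went from 10550 to 8615 CPM. The median depth went from 8456 to 15936 UMIs along the bins, so deeper cells entered the higher bins more easily, and the part of depth in these levels was not tested.

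**Figure D5:**
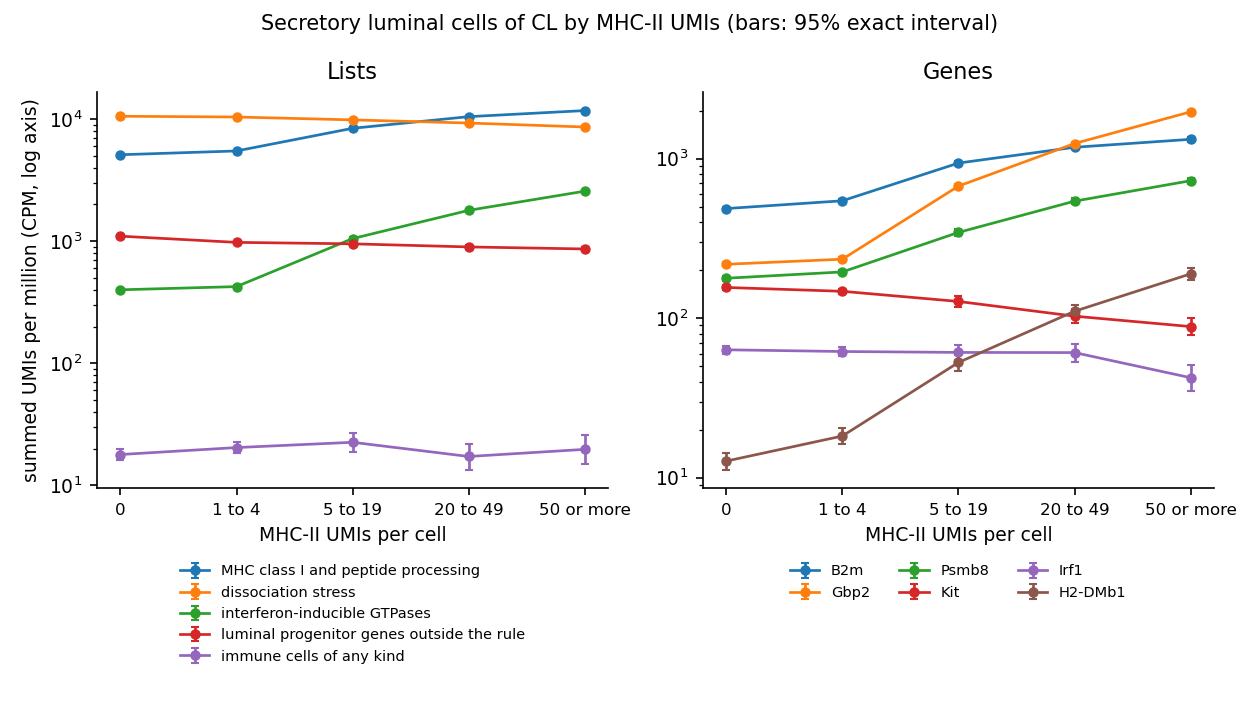
Summed level in CPM (y axis, log) of gene lists (left) and genes (right) in secretory luminal cells of CL grouped by MHC-II UMIs per cell (x axis), with exact 95% intervals. GTPases went from 400 to 2568 CPM and H2-DMb1 from 12.7 to 190 CPM, while immune markers stayed between 17.2 and 22.5 CPM.

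In CL, GTPases and Gbp2, the gene with most of their UMIs, stepped up between the cells just outside and just inside the limit of 5 UMIs. CL cells with 3 or 4 MHC-II UMIs had GTPases at 480 CPM and Gbp2 at 277 CPM, and those with 5 or 6 had 1191 and 760 CPM. The list of chemokines and other products of interferon gamma went the other way, from 194 to 155 CPM. In Ctrl, on 21 and 3 cells, GTPases were at 99.8 CPM (73.1 to 133.1) and 130.1 CPM (59.5 to 247). Gbp2 was at 8.68 and 0 CPM there. Among the 795 members the share of a cell's UMIs in MHC-II genes went with its share in MHC class I genes (Spearman 0.49), as a description over cells of 1 library that share its depth, and with lower depth (-0.35). The values for the other lists were weak.

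The 17 Ctrl members were uneven. The pair with 62 and 133 MHC-II UMIs had GTPases at 7525 CPM (6693 to 8431), and the other 15 at 59.6 CPM (34.1 to 96.8), beside 50.4 CPM in the rest of the Ctrl secretory cells. Cxcl9 was counted 351 and 222 times in the pair and at 0 in the other 15 cells. Gbp2 gave 195 of the 297 GTPase UMIs of the pair. The pair also held 195 of 197 Gbp2 UMIs, 151 of 153 Cxcl10 UMIs and 63 of 65 Ubd UMIs, with B2m at 2787 against 399 CPM and Cd274 at 583 against 3.73 CPM. It had no immune marker UMI, Aldh1a3 at 1165 CPM and Kit at 5 UMIs. The other 15 cells held all 16 immune marker UMIs and 78 of 80 Stmn1 UMIs. Sums over the Ctrl members mix these cells, so values below are given also without the pair where that changes a direction.

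In Ctrl, 122 of 5391 genes (2.26%) were at least 2-fold higher in members than in other secretory luminal cells and 73 (1.35%) lower, on only 307817 UMIs. With TMM factors, another scaling, the split was 93 and 98. The cells were again split by the rule itself, and the intervals are not adjusted for the number of genes, so at this depth a sizeable part of the calls can come from counting error alone. Of 4743 genes at 20 CPM or more on both sides, 36 were higher and 33 lower. GTPases were at 1017 and 50.4 CPM (4.34), and without the pair at 0.24 (-0.57 to 0.95). MHC class I was at 5529 and 2736 CPM (1.01), with 2 of 13 genes at 20 CPM or more on both sides past 2-fold. Cxcl9 (1861 CPM against 3 UMIs in 2746 cells, 14.37, 12.81 to 16.65), Ubd (6.44), Gbp2 (5.34) and Cxcl10 (4.88) had the highest ratios, followed by H2-Q7 (2.51), Stmn1 (1.96), Bst2 (1.75) and B2m (1.68). Without the pair the Gbp2 ratio was -1.09 (-4.13 to 0.77) and that of Cxcl10 -1.18 (-4.23 to 0.68), on 2 UMIs each. Division genes were at 588 and 208 CPM (1.5), and 34 of 35 Mki67 UMIs lay outside the pair, with Mki67 counted in 3 of the 17 cells. Of the 80 Stmn1 UMIs, 85.0% lay in 1 cell. In cells with no immune marker UMI the division ratio was -0.54 (-1.30 to 0.12) and that of Stmn1 -0.96 (-2.84 to 0.40). The lowest ratios, each on 2 to 10 UMIs in members, included Tagln (-3.43, -6.48 to -1.58) and the stromal and contractile genes Dcn (-2.80), Cald1 (-2.37) and Acta2 (-2.28). Plekhg3 was at -2.39 (-4.67 to -0.84), and Ppif, Apoc1, Car2 and Mgll between -1.88 and -1.64.

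Between the libraries, the other secretory luminal cells differed in some of the same groups. Of 5318 genes, 21 (0.395%) were at least 2-fold higher in CL and 8 (0.15%) lower. Of 5164 genes at 20 CPM or more on both sides, 10 were higher and 4 lower. GTPases were at 411 CPM in CL and 50.4 CPM in Ctrl (3.03, 2.96 to 3.10) and MHC class I at 5282 and 2736 CPM (0.95), with 6 of 14 genes at 20 CPM or more on both sides past 2-fold. Products of interferon gamma had 0 of 1 comparable gene past 2-fold, a summed ratio of 0.03 (-0.04 to 0.10) and a median of 0.58. Among them Ido1 was at -0.73, and below the level for calls Cxcl9 was at 5.10 (3.52 to 7.4, over 3 Ctrl UMIs) and Ubd at 2.81. MHC-II loading genes had 0 of 3 past 2-fold, a summed ratio of -0.25 and a median of 0.27. The 4 rule genes were at 52.6 and 19.1 CPM in these cells, which by the rule hold at most 4 UMIs each. Gbp2 was at 226 and 15.8 CPM, and at equal depth it was counted in 36.1% of the CL cells and 5.90% of the Ctrl cells. Hormone-responsive cells gave 25.2% and 12.9% at that depth, and Gbp2 in empty droplets was at 285 CPM in CL and 36.01 CPM in Ctrl. The part of free RNA in this contrast was not tested.

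Among members, 107 of 5371 genes (1.99%) were at least 2-fold higher in CL and 145 (2.7%) lower, with 17 cells on the Ctrl side. The same limit on calls at low depth applies here. Of 4732 genes at 20 CPM or more on both sides, 61 were higher and 56 lower. With TMM factors, which shifted these ratios by 0.11, the split was 159 and 97. MHC class I was at 9822 and 5529 CPM (0.83, 0.76 to 0.90), with 8 of 15 such genes higher, but at -0.53 (-0.64 to -0.41) at a limit of 20 MHC-II UMIs. Csf3, which encodes G-CSF, was at 794 and 117 CPM (2.76, 2.29 to 3.28). Zbp1 was at 96.2 and 19.5 CPM (2.30) and Fgg at 85.2 and 16.2 CPM (2.39). Ccl5, Hp, Smad3 and Plekhg3 had ratios of 2.36 to 4.51 over 1 to 3 Ctrl UMIs, and Dcn 2.48 over 4. Their intervals began at 0.81 or above (Plekhg3) and ran up to 9.82 (Ccl5). Progenitor genes were at 914 and 1066 CPM (-0.22) and milk genes at 2329 and 2791 CPM (-0.26).

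Several of the genes lower in CL members lay mostly in the Ctrl pair. Cxcl9 (83.5 and 1861 CPM, -4.48), Cxcl10 (-3.03) and Ubd (-1.44) were lower in CL with the pair included, and without it the ratios of Cxcl10 and Ubd were 3.03 (1.17 to 6.08) and 3.38 (1.53 to 6.43), over 2 Ctrl UMIs each. The list that holds them was at -2.76 with the pair and 2.37 without it, and GTPases at 0.68 with it and 4.77 (4.07 to 5.58) without it. The GTPase ratio was -0.53 (-0.69 to -0.36) in cells with no immune marker UMI and -1.83 (-2.0 to -1.66) at a limit of 20 MHC-II UMIs, where the pair makes up the Ctrl side. Stmn1 (-2.59) and division genes (-1.70) were also lower in CL, but in cells with no immune marker UMI their ratios were 0.61 (-0.76 to 2.49) and 0.42 (-0.25 to 1.18). Apoe (-1.39), Rab7b (-1.24), Cck (-1.22), Bhlhe40 (-1.13), Lif (-1.08) and Ehf (-0.95), an epithelial transcription factor, completed the lowest named ratios.

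Basal cells of CL shared part of the pattern. The 4 rule genes were led there by Cd74 at 430 CPM, against 897 CPM in secretory members and 42.4 CPM in basal cells of Ctrl. Gbp2 was at 612 CPM over all CL basal cells and 83.2 CPM in hormone-responsive cells, and Ifi47 at 77.7 and 1.87 CPM. Cxcl10 was higher over all basal cells (223 CPM) than in the members (60.9 CPM), and Cxcl9 lower (5.69 and 83.5 CPM). The members were chosen by MHC-II, while 80 of the 418 basal cells reached that limit. The spread of Cxcl9 and Cxcl10 over single basal cells was not examined. Ubd was at 2.01 CPM in basal cells and 77.7 CPM in the members.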

How the data were processed

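Per the labels the libraries were made with the 10x Genomics 3' v2 protocol. The authors deposited raw UMI counts, not normalized, as unfiltered matrices of 32285 genes. The submitters' processing notes name Cell Ranger 2.1.1 and mm10, while the file headers name another Cell Ranger version. The barcode lists (7217 in Ctrl, 10555 in CL) did not index the matrix columns, so as many barcodes with most UMIs were taken (82.7% and 85.7% of UMIs, down to 615 and 648 UMIs). Barcodes of 100 to 300 UMIs served as empty droplets. Hormone-responsive cells met the rule with both sums exchanged, basal cells had at least 10 basal keratin UMIs and more than luminal ones, and Ptprc-positive cells had a Ptprc UMI and fewer than 10 luminal keratin UMIs.

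UMIs were summed over cells of a kind and divided by all their UMIs (CPM). Ratios have exact conditional binomial intervals, shares Clopper-Pearson intervals and levels Poisson intervals. A gene was comparable at a mean of 20 CPM over both sides and called past 2-fold (log2 of 1) with an interval that excludes 0. Thinning went to the 10th percentile of UMIs of CL secretory luminal cells, the shallower library. Doublets were scored with Scrublet in scanpy 1.11.5 at an expected 6%. Its own threshold called 0 cells in CL, so that of Ctrl (0.202) was used for both, marking 5.84% and 6.04%. Python 3.11.15, numpy 2.4.6, scipy 1.17.1 and edgeR 4.0.16 (TMM factors only) were used.

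The members, the 26 gene lists and the tests were chosen with earlier results of these data known. Genes named outside the lists were the 10 highest and 10 lowest ratios of each comparison among genes of at least 50 CPM and 50 UMIs on the higher side, after genes of the rule, of mitochondria, ribosomes, haemoglobin and the sex chromosomes, and clones with no name, were set aside. The called genes on no list, the Ctrl pair and the promoters shown were picked after their values were seen. Gene positions came from GENCODE on GRCm38, which held 32235 of the 32285 identifiers, and promoters from RefSeq. Cxcl11, Mx1 and Mx2 were not analysed here, and some genes that the rule names are not reported here. Alternatives moved the MHC-II limit, the filters, the scaling and the cells included, 1 at a time.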

Additional observations from a re-analysis of the deposited data

Results flagged for a closer look

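Several values had opposite signs in the libraries or kinds of cells compared, each with intervals on opposite sides of 0. None of these differences was tested, since each side is 1 library. Within libraries, the log2 ratio of members over other secretory cells was 0.33 in CL and -0.21 in Ctrl for acute phase genes, and 1.46 and -2.67 for Hp. Hp rests on 2 UMIs in the Ctrl members, with an interval of -5.72 to -0.81.

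Between libraries, the log2 ratio of CL over Ctrl was -0.88 in members and 0.61 in other secretory cells for costimulation and checkpoint ligands. Without the 2 Ctrl members richest in MHC-II the first value was 0.92 (0.07 to 1.93), the sign of the other cells. It was 1.59 and -0.17 for basal genes, 1.85 and -0.64 for fibroblast genes and 2.48 and -0.41 for Dcn, each on 4 to 7 UMIs in the Ctrl members. Immune markers gave -1.36 and 0.71 and macrophage genes -1.72 and 1.15, on 16 and 7 UMIs in the Ctrl members. Cxcl9 gave -4.48 and 5.10, and Ubd -1.44 and 2.81. Without those 2 cells Ubd gave 3.38 (1.53 to 6.43) in members, over 2 Ctrl UMIs, and Cxcl9 was at 0 UMIs in the other 15 Ctrl members. Ehf gave -0.95 and 0.11.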

How the results depend on the processing

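No paired analysis was possible because each group holds 1 library. All comparisons rest on 1 library per group and on 17 Ctrl members, so a difference between treatments cannot be told apart from one between mice, sorts or libraries, and no cause of a changed value was tested. The excess of members in CL kept its direction under all 16 alternatives. The log2 ratio of shares (4.99) was 4.09 at a limit of 3 MHC-II UMIs, 7.03 at 20 UMIs, 6.03 and 4.26 after thinning at limits of 5 and 2 UMIs, and 6.03 in cells with no immune marker UMI.

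In CL, the 33 higher genes and 1 lower gene became 280 and 155 without the filter on low values. The lower count was 2 after thinning and 0 at a mean of 50 CPM. The sum of 76 antigen presentation and interferon genes over other cells (0.89) was 0.87 with TMM factors, 0.90 as a mean of each cell's CPM and after thinning, 0.92 without doublet calls and against cells with 0 MHC-II UMIs, 1.07 at 20 MHC-II UMIs and 0.88 without cells of 10 or more basal keratin UMIs. That last alternative and the one without the 2 richest Ctrl cells, called the pair, were chosen after seeing the data. For fibroblast genes the ratio was 0.63 in cells with no immune marker UMI, and for dendritic cell genes 0.28 after thinning.

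In Ctrl, the counts of 122 and 73 were 224 and 111 in cells with no immune marker UMI, 291 and 115 at 20 MHC-II UMIs, 383 and 158 without the filter and 25 and 21 at a mean of 50 CPM. Directions turned for milk genes (0.09), division genes (-0.54) and Stmn1 (-0.96) in cells with no immune marker UMI, and for division genes (-1.04) and Stmn1 (-0.40) at 20 MHC-II UMIs. Without the pair they turned for the list of Cxcl9 and Cxcl10 (-0.30), hormone-responsive genes (-0.44), Gbp2 (-1.09), Cxcl10 (-1.18) and Ly6a (-0.32).

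For members of CL over Ctrl, the 107 higher and 145 lower genes were 203 and 440 without the filter and 42 and 32 at a mean of 50 CPM, and the lower count was 223 with no immune marker UMI and 239 at 20 MHC-II UMIs. The sum of the 76 genes (0.34) was 0.45 with TMM factors, 0.41 as a mean of each cell's CPM, 0.48 after thinning, 1.24 without the pair and 0.78 without basal keratin. It turned to -0.46 with no immune marker UMI and -1.54 at 20 MHC-II UMIs. With no immune marker UMI, GTPases (-0.53), neutrophil chemokines (-0.55), division genes (0.42) and Stmn1 (0.61) turned. At 20 MHC-II UMIs, where 2 Ctrl cells are left, MHC class I (-0.53), GTPases (-1.83), type I interferon genes (-0.81), progenitor genes (0.08), hormone-responsive genes (-0.63), stress genes (0.77), division genes (0.73) and Cck (1.62) turned. Without the pair, costimulation (0.92), the list of Cxcl9 and Cxcl10 (2.37), Cxcl10 (3.03) and Ubd (3.38) turned. Stress genes were at 0.01 with TMM factors, progenitor genes at 0.03 after thinning and Ubd at 1.07 without basal keratin. Of the other values for lists and genes, 696 stayed within the interval of the reported value and 309 lay outside it.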
